A study of Arabidopsis thaliana with 6 samples.

Results

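LONESOME HIGHWAY (LHW), its 3 LHW-like relatives and the homeodomain gene PHAVOLUTA (PHV) are regulators of the plant vascular cylinder, and their transcript levels were compared here between sorted root cells marked by a WOX5 reporter and by a TMO5 reporter. The genes were taken by name or locus: LHW (AT2G27230), PHV (AT1G30490), AT1G06150 (EMB1444, also LHL1), AT2G31280 (CPUORF7, also LHL2) and AT1G64625 (LHL3). Of these 5 genes, only LHW and PHV had a probe set that the array annotation gives to a single gene, and each had exactly 1, among 13355 genes named in the series. The annotation table used here assigns no probe set to the 3 LHW-like genes, alone or with other genes, so their levels were not analysed here.

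The 6 arrays came from Arabidopsis thaliana roots (Col-0 ecotype), sampled 5 days into growth on standard medium, and the 2 groups shared ecotype, age and medium. WOX5::GFP cells (3 arrays) carry green fluorescent protein under WOX5, a homeobox gene known from the quiescent centre, whose cells divide rarely and keep the surrounding root stem cells from differentiating. pTMO5::GFP cells (3 arrays) carry it under the promoter of TMO5, a gene of young vascular and xylem cells. The sample descriptions call the WOX5 cells quiescent centre and the cell type tag calls them xylem, with the reverse for TMO5, so the groups are named here by reporter. Each reporter marks whatever cells its promoter is active in, and each was used on 1 set of arrays, so that cell type and array handling cannot be told apart. Nothing in the labels says whether the 3 samples of a group were grown separately, so p-values speak to the spread among these arrays, which may be technical.

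LHW encodes an atypical basic helix-loop-helix (bHLH) transcription factor. It forms a heterodimer with TMO5 or a TMO5-like protein, and the heterodimer promotes the oriented divisions that widen the vascular cylinder, in part through local cytokinin synthesis. Proteins of the SAC51 family, whose translation responds to the polyamine thermospermine, compete with TMO5 for binding to LHW. PHV belongs to the class III homeodomain-leucine zipper (HD-ZIP III) family, whose transcripts are cut under the guidance of the microRNAs miR165 and miR166. In the root, those microRNAs move into the stele from the endodermis and leave HD-ZIP III transcripts most abundant in its centre, where their dose patterns protoxylem and metaxylem.

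PHV was lower in WOX5 cells. Its intensity was 270, 263 and 209 on WOX5 replicates 1, 2 and 3, against 533, 598 and 418 on TMO5 replicates 1, 2 and 3. All WOX5 arrays lay below all TMO5 arrays, and the gap between the nearest arrays, WOX5 replicate 1 and TMO5 replicate 3, was 1.55-fold. The means were 248 ± 33.6 in WOX5 and 517 ± 91.1 in TMO5 cells (SD, n = 3 each), a log2 difference of -1.05 ± 0.21 (SE; WOX5 minus TMO5), or 2.08-fold lower (limma adjusted p = 0.019). The 95% interval of the log2 difference ran from -1.57 to -0.54. The transcript was present in both populations, at a mean of 7.76 times the background level in WOX5 and 21.6 times that in TMO5 cells, where background is a level that 95% of 27 unspiked bacterial controls stayed below. In sorted material of this kind, fewer cells that express a gene and less of its RNA per cell cannot be told apart.

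LHW did not pass the test. Its intensity was 632, 949 and 664 on the WOX5 arrays, against 673, 608 and 819 on the TMO5 arrays. The groups overlapped, with the highest value on WOX5 replicate 2 and the lowest on TMO5 replicate 2, and all 6 arrays lay within a 1.56-fold range. The means were 749 ± 175 in WOX5 and 700 ± 108 in TMO5 cells (SD, n = 3 each), a log2 difference of 0.08 ± 0.23 (SE; limma adjusted p = 0.82). The 95% interval, from -0.48 to 0.65, covers any difference between a 1.4-fold fall and a 1.57-fold rise in WOX5 cells, and a fall as large as that of PHV lies outside it. LHW was well above background everywhere, at a mean of 23.5 times background in WOX5 and 29.2 times in TMO5 cells, and at least 19.8 times on its dimmest array relative to its group.

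**Figure D1:**
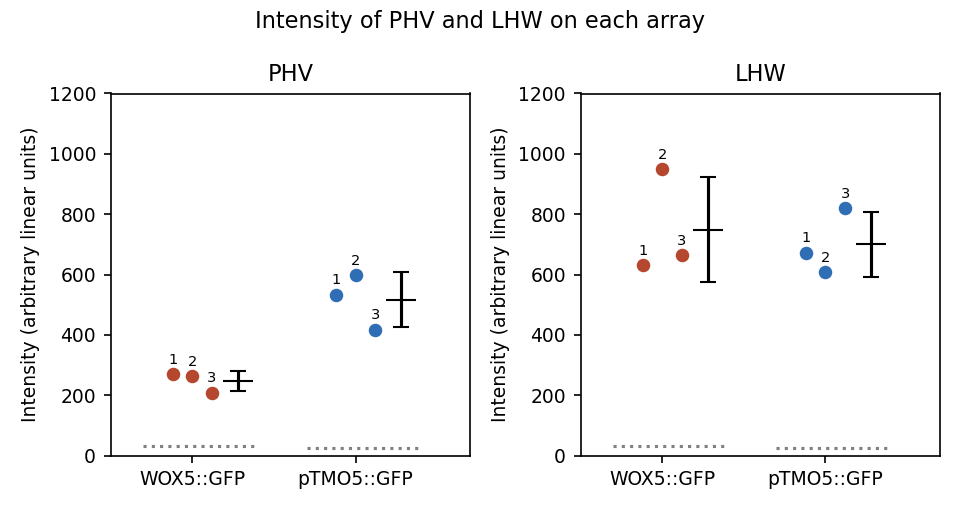
Intensity (linear, arbitrary units) of PHV and LHW on each array, with WOX5::GFP arrays in red and pTMO5::GFP arrays in blue, numbered by replicate; bars give the mean ± SD of 3 arrays and dotted lines the background of each group. PHV ran from 209 to 270 in WOX5 and from 418 to 598 in TMO5 cells with no overlap, while LHW overlapped between the groups.

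Thus 1 of the 2 measured genes was called, and none was higher in WOX5 cells. Over all 22746 probe sets tested, 23.8% were called in either direction, and 9.49% were called lower in WOX5. The groups did not overlap for 46.8% of all probe sets, with WOX5 lower for 22.4% and higher for 24.4%, so separated groups such as those of PHV were common in this comparison. A log2 difference as low as that of PHV or lower was found for 8.65% of probe sets, and one as small in size as that of LHW or smaller for 8.02%.

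The deposited arrays share a trimmed mean but not a median, so the direction of small differences rests on the scaling. Over all probe sets the log2 difference had a median of 0.03 as deposited, -0.14 once arrays were quantile normalized and -0.35 once each array was centred on its median. The difference of PHV was -1.05, -1.22 and -1.43 under these scalings (limma adjusted p = 0.019, 0.013 and 0.0067). Set against that median, it was -1.09, -1.08 and -1.09. The difference of LHW was 0.08, 0.12 and -0.29, and 0.05, 0.26 and 0.05 against the median. Centring shifts the difference of every probe set by the same amount, so deposited and centred values set against the median agree by construction. PHV thus fell under each scaling, whereas LHW changed sign with centring and passed under none of them.

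The call of PHV depended on single arrays more than its size did. Without WOX5 replicate 3 the adjusted p was 0.057, without TMO5 replicate 1 it was 0.067, and without TMO5 replicate 2 it was 0.069, while the fold stayed between 1.91 and 2.03. The call was kept without WOX5 replicate 1, but at an adjusted p that rounded to 0.05. Array WOX5 replicate 2 stood apart from its group, since its log2 values differed from those of replicates 1 and 3 with SDs of 0.6 and 0.59, against 0.34 between replicates 1 and 3, over the brighter part of the probe sets. Without it, PHV differed by -1.10 (limma adjusted p = 0.039) and LHW by -0.10 (limma adjusted p = 0.73).

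**Figure D2:**
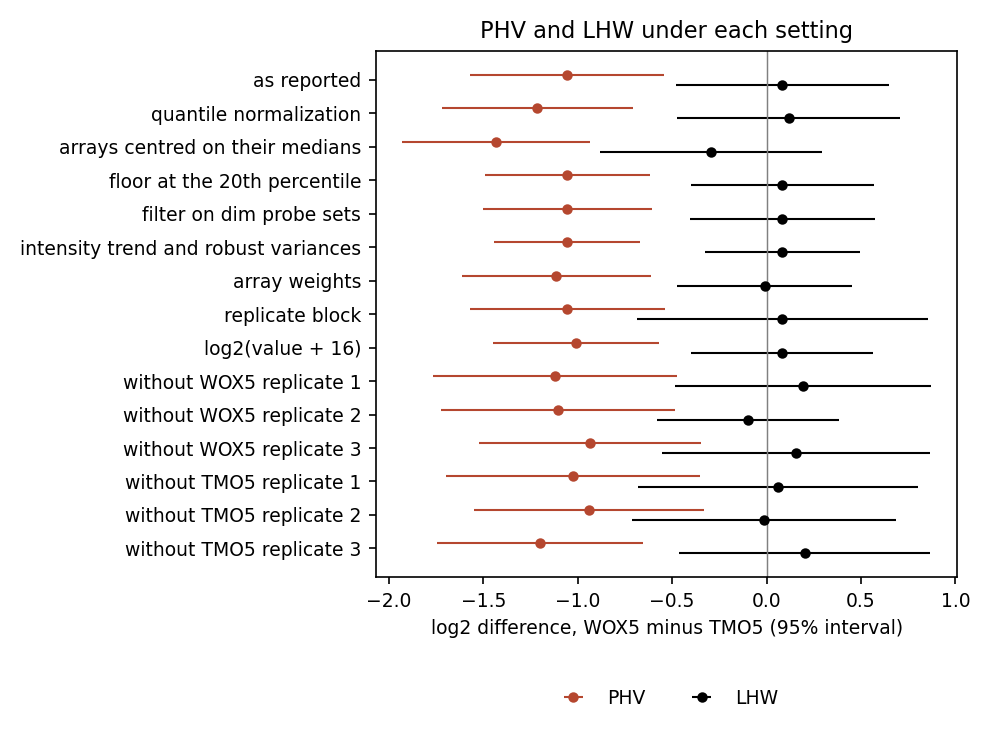
Log2 difference (WOX5 minus TMO5) of PHV in red and LHW in black under the reported fit and each alternative; points are estimates and lines 95% intervals. PHV stayed between -1.43 and -0.94 and LHW between -0.29 and 0.20.

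A ratio within an array is free of any constant factor applied to that array, though not of quantile normalization. The log2 ratio of PHV to LHW was -1.23, -1.85 and -1.67 on the WOX5 arrays, against -0.34, -0.02 and -0.97 on the TMO5 arrays. All WOX5 ratios lay below all TMO5 ratios, with the narrowest gap between WOX5 replicate 1 and TMO5 replicate 3. The means were -1.58 ± 0.32 in WOX5 and -0.44 ± 0.48 in TMO5 cells (SD, n = 3 each), so PHV relative to LHW was 2.2-fold lower in WOX5 (difference -1.14, or -1.33 after quantile normalization; exact two-sided permutation p = 0.1 over 20 arrangements for both). That is the smallest p that 3 arrays against 3 can give, so this comparison cannot reach 0.05. It was the 1 pair that the measured genes allow, and it does not say whether LHW itself was constant.

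**Figure D3:**
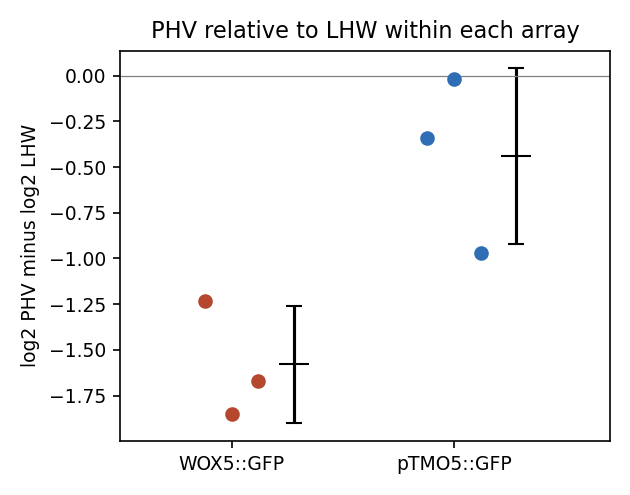
Log2 PHV minus log2 LHW on each array, by reporter; points are arrays and bars the mean ± SD of 3 arrays. The WOX5 arrays lie between -1.85 and -1.23 and the TMO5 arrays between -0.97 and -0.02.

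The closest partners and relatives of these genes were not analysed here. No single-gene probe set was named for any of the 4 listed partners of LHW (TMO5 and its relatives), the other 4 HD-ZIP III genes or the 10 listed regulators of HD-ZIP III genes. These lists and those of heterodimer targets, the SAC51 family, vascular hormone signalling and PEAR factors, written by locus from general knowledge, held 47 genes beside LHW and PHV, and 6 of the 47 were measured. Of these, 2 were higher and 1 lower in WOX5 cells, against 14.3% and 9.49% of all probe sets. Their median log2 difference was 0.34, against 0.03 over all probe sets. Several of these loci carry no name in the gene table and are given by locus.

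On the list of heterodimer targets and cytokinin synthesis, the measured locus was AT2G28510, which was higher in WOX5 cells. Its intensity was 118, 106 and 116 in WOX5 against 33.3, 39.1 and 40.4 in TMO5 cells, a 3.03-fold difference (log2 1.60 ± 0.15 SE; limma adjusted p = 0.0025), and it differed in the opposite direction to PHV. Its mean was 3.56 times background in WOX5 but only 1.57 times in TMO5 cells. BGLU44, a beta-glucosidase listed for cytokinin release downstream of the heterodimer, did not pass, with 67.4, 84.9 and 66.2 in WOX5 cells against 92.3, 77.6 and 69.5 in TMO5 cells.

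Of the loci listed for the SAC51 family, whose proteins bind LHW in competition with TMO5, AT5G50010 was lower in WOX5 cells. Its intensity was 66.5, 43.9 and 59.8 on WOX5 arrays against 115, 112 and 118 on TMO5 arrays, 2.05-fold lower (log2 -1.04 ± 0.20 SE; limma adjusted p = 0.018). Its mean was only 1.78 times background in WOX5 and 4.79 times in TMO5 cells. Its call, like that of PHV, was lost without TMO5 replicate 1 or 2, and also without TMO5 replicate 3, with adjusted p up to 0.064. It was also lost when same-numbered arrays were taken as a block (a replicate block; limma adjusted p = 0.068). AT5G09460 of the same list had 77.5, 64.0 and 51.3 in WOX5 against 44.3, 85.7 and 45.2 in TMO5 cells, with overlapping groups and a log2 difference of 0.19 ± 0.33 (SE). AT3G09630, a locus listed among suppressors of the thermospermine-deficient acl5 mutant, did not pass (log2 -0.52 ± 0.16 SE; limma adjusted p = 0.073).

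Among genes of vascular auxin response, which acts upstream of TMO5 and in xylem patterning beside PHV, the Aux/IAA repressor genes IAA20 and IAA30 were measured. IAA20 was 2.15-fold higher in WOX5 cells, at 816, 1190 and 909 against 506, 473 and 372 (limma adjusted p = 0.020). The call was lost without WOX5 replicate 3 or TMO5 replicate 2 or 3 (limma adjusted p up to 0.063). It was also lost with a replicate block (limma adjusted p = 0.07). IAA30 did not pass, at 666, 898 and 590 in WOX5 against 955, 872 and 610 in TMO5 cells. AT5G02460, the measured locus of the PEAR list of DOF factors, was within background in both groups.

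Around PHV, the other measured homeodomain-leucine zipper gene was HAT2, an auxin-responsive class II member, 1 of 43 listed for classes I, II and IV. HAT2 had a log2 difference of -0.65 ± 0.27 (SE; limma adjusted p = 0.14), with 413, 773 and 475 on WOX5 arrays against 878, 902 and 746 on TMO5 arrays. SE (SERRATE), which acts in microRNA processing, differed by -0.45 ± 0.14 (SE; limma adjusted p = 0.068), and all its WOX5 arrays, from 333 to 371, lay below its TMO5 arrays, from 462 to 511. No single-gene probe set was named for any other listed gene of the microRNA machinery.

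**Figure D4:**
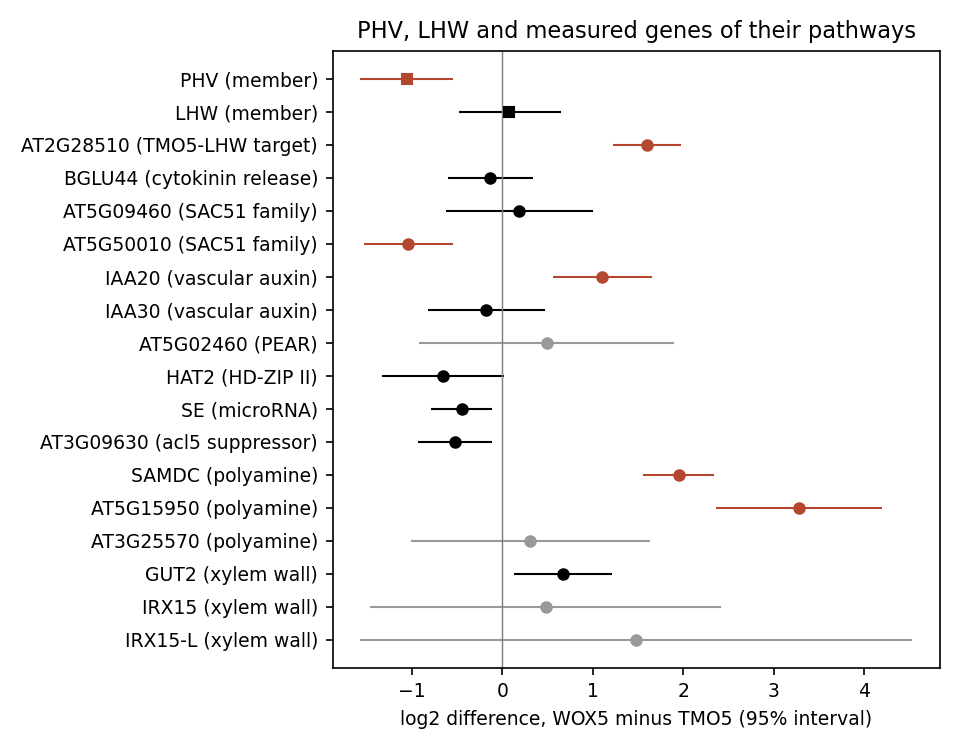
Log2 difference (WOX5 minus TMO5) with 95% interval for PHV and LHW (squares) and the measured genes of pathway lists (circles, list in brackets). Red marks genes that passed, black genes that did not and grey genes within background in both groups, and PHV lies with AT5G50010 near -1.05 on the lower side.

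LHW was also set against other bHLH genes, a family listed by locus with 155 further loci, 57 of them measured. Of these, 16 were higher and 2 lower in WOX5 cells, against 14.3% and 9.49% of all probe sets, but 5 of the 16 were within background in both groups. The family's median log2 difference was 0.43, 39 of the 57 lay above LHW, and 4 had a smaller difference in either direction. These figures include 21 genes within background in both groups. Of the other 36, 11 were higher and 2 lower in WOX5 cells, and 25 had a positive difference. The lower genes were AT5G50010 and UPB1, a regulator of the root's transition to differentiation, which had 69.9, 39.9 and 69.9 on WOX5 arrays against 148, 196 and 232 on TMO5 arrays (limma adjusted p = 0.015). For UPB1 the limma adjusted p was up to 0.056 without TMO5 replicate 2 or 3 and 0.055 with a replicate block. Without any 1 TMO5 array the count of higher genes was 7 to 9, and without WOX5 replicate 1 it was 9. No test of LHW against the family was made.

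**Figure D5:**
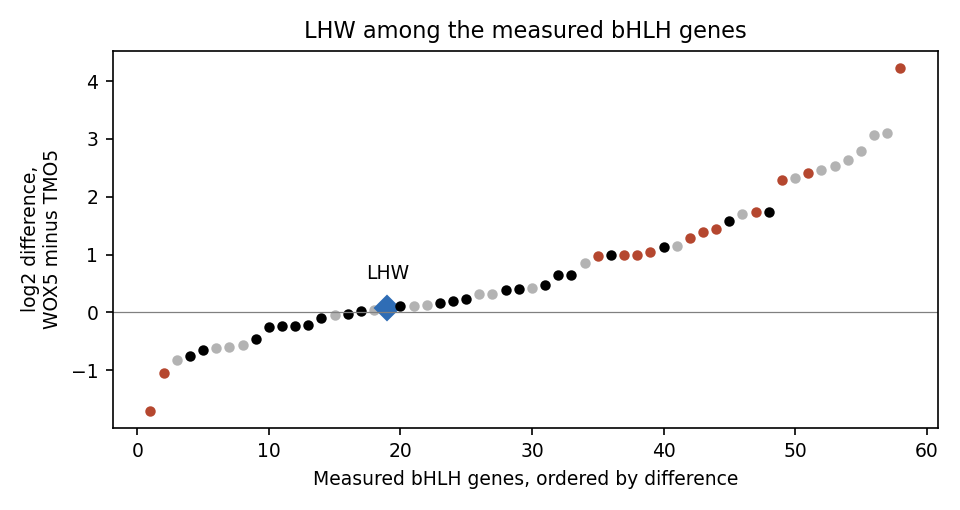
Log2 difference (WOX5 minus TMO5) of LHW (blue diamond) and 57 other measured bHLH genes in order of their difference; red points passed, black points did not and grey points were within background in both groups. LHW sits near 0 at 0.08, with 39 genes above it.

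The genes whose 6 log2 values were closest to those of each regulator, by Euclidean distance over the 6 arrays, were taken as a description. For PHV these were AT2G25730 at a distance of 0.41, AT5G15880 at 0.49 and AT2G26200 at 0.50. AT2G25730 had 266, 248 and 235 in WOX5 against 443, 505 and 412 in TMO5 cells. For LHW these were BSH at 0.36, AT1G20540 at 0.37 and AT3G03170 at 0.44. BSH had 659, 912 and 568 in WOX5 against 754, 651 and 716 in TMO5 cells. Its highest value, like that of LHW, was on WOX5 replicate 2, and such likeness follows from how these genes were picked. The distance reads level as well as shape, on a single platform and scaling.

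Marker lists give the background to the fall of PHV. Of 11 genes listed as quiescent centre markers, 4 were measured (AGL42, BBM, JKD and CR4). All 4 were called higher in WOX5 cells, against 14.3% of all probe sets. How specific these markers are to the quiescent centre was not tested. Their summed intensity was 1710 to 2960 in WOX5 against 683 to 734 in TMO5 cells. BBM carried most of the sum, with 1060, 2040 and 1100 against 645, 666 and 585. BBM passed only marginally, with limma adjusted p = 0.048 and up to 0.13 without single arrays. Its limma adjusted p was 0.055 after quantile normalization, 0.12 with centred arrays and 0.089 with a replicate block. No single-gene probe set was named for any of 10 xylem markers, or for WOX5 or TMO5 itself, so these were not analysed here. Of 32 genes on a separate list of xylem differentiation, 3 were measured and 0 passed, against 23.8% of all probe sets in either direction. GUT2 (IRX10), which acts in xylan synthesis of the secondary wall, had 118, 135 and 116 in WOX5 against 99.8, 62.9 and 73.0 in TMO5 cells, with no overlap and the higher values in WOX5 (log2 0.67 ± 0.22 SE; limma adjusted p = 0.077), and IRX15 and IRX15-L were within background in both groups. OPS, the 1 phloem marker of 7 measured, had 29.9 to 63 in WOX5 against 56.3 to 72.4 in TMO5 cells. The 3 ground tissue markers of 6 summed to 308 to 624 in WOX5 against 163 to 197 in TMO5 cells, but they differed among themselves. AT1G62500 was 12.3-fold higher in WOX5 and carried the sum, though its TMO5 mean was only 1.38 times background. GSO1 differed by 0.08 ± 0.30 (log2, SE), and AT1G09750 did not pass but lay lower on all WOX5 arrays, at 54.8, 28.4 and 59.2 against 115, 81.5 and 122 on the TMO5 arrays. Sums in WOX5 against TMO5 cells were 22.4 to 141 against 16.6 to 93.3 for 1 of 4 root cap markers (AT1G65570), 61.3 to 97.6 against 183 to 325 for 2 of 6 epidermis and hair markers (EXPA7 and AT5G04960) and 92.5 to 100 against 40.8 to 46.5 for 2 of 3 pericycle markers (LBD16 and LBD29). LBD29 was within background in both groups, and LBD16 was at 2.26 and 1.29 times background in WOX5 and TMO5 cells. The part of the listed cell types in the values of PHV and LHW was not tested.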

How the data were processed

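Expression was measured on Affymetrix arrays with biotin-labelled RNA, per the labels' protocols. The authors deposited linear intensity values for 22810 probe sets and 6 arrays, without detection calls. Neither the software nor the genome build of the probes is stated in the sources used here, and gene coordinates are left out. Every array had a mean of 250.0 after trimming 2% at each end, and medians of 91.6 to 92.5 in WOX5 and 68.1 to 74.6 in TMO5. Arrays have no read depth, and their number limits the precision.

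Values under 1 (1040, controls included) were raised to 1 and log2 was taken. After leaving out 64 control probe sets, 22746 were tested with limma 3.58.1 under R 4.3.3, taking WOX5 minus TMO5 (lmFit, eBayes; threshold 0.05 after Benjamini-Hochberg adjustment over all of them). The fit was also run on simulated data with independent noise and no effect shared across an array, which says nothing about such effects. Background was 31.9 in WOX5 and 24.0 in TMO5, from each control's group mean. Names came from the platform annotation, updated through the TAIR10.1 gene table, and named 1 gene for 13513 probe sets, several for 503 and none for 8730. Genes are called measured where a probe set was named for them alone, so other genes may lie among the unnamed probe sets. For genes with several probe sets the brightest was used. No sequences were used, so a planned search for protein relatives was not run. The genes and lists were chosen with earlier results of these data known, and the bHLH, HD-ZIP, DOF, polyamine, microRNA, acl5, xylem differentiation, MONOPTEROS target and cytokinin release lists were added after the annotation had been read. The rule for names took both measured genes, list genes with 2 to 4 examples a list, and the 3 nearest genes by distance. No listed MONOPTEROS target had a named single-gene probe set, and of 3 xylem differentiation genes (GUT2, IRX15, IRX15-L) none passed. Alternatives covered scaling, floor, filter, variance model, array weights, replicate block, pseudocount and each array left out.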

Additional observations from a re-analysis of the deposited data

How the results depend on the processing

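PHV kept its direction under all 14 alternatives, from -1.43 to -0.94, and its call under 10. In 1 of these, without WOX5 replicate 1, the limma adjusted p lay at the threshold (0.05 after rounding). LHW passed under none, and its difference was -0.29 with arrays centred on their medians, -0.01 with array weights and -0.29 to 0.20 over all alternatives. When single arrays were left out, PHV ran from -1.20 to -0.94, LHW from -0.10 to 0.20, and the PHV to LHW ratio from -1.40 to -0.93 (-1.33 with quantile normalization). Genes called lower among the measured regulators then numbered 0 to 1. Same-numbered arrays did not deviate together (correlations of -0.05, 0.02 and 0.02), but these values cannot tell whether they were prepared together. With a replicate block PHV was -1.05 (limma adjusted p = 0.051), and calls fell to 0 regulators, 1 pathway gene higher and 0 lower, 8 bHLH genes higher and 0 lower, and 1719 probe sets higher and 551 lower. In the reported fit 3252 probe sets were higher and 2159 lower. Leaving out single arrays gave 2101 to 2854 higher and 726 to 2000 lower, 7 to 14 bHLH genes higher and 0 to 2 lower, and 1 to 2 pathway genes higher and 0 to 1 lower. Probe sets lower in WOX5 numbered 5297 with centred arrays (4 bHLH genes lower), 3246 when low values were raised to the 20th percentile, 3245 when dim probe sets were filtered out and 3314 when variances were robust and followed intensity. The cause was not tested, except that fewer arrays enter a fit without 1. Of 33 list genes that passed, markers included, 17 lost the call under some alternative and 0 changed direction, and 6 of the 33 were removed by the filter on dim probe sets. Both regulators had a single probe set, so no second probe set could be tried. Small differences are limited by 3 arrays a group and by scaling.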

Other observations

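Beside the regulators described above, genes of polyamine synthesis, which makes thermospermine and other polyamines, were measured at 3 of 10 listed loci. Of these, 2 were higher in WOX5 cells, where 14.3% of all probe sets were. SAMDC, an S-adenosylmethionine decarboxylase, had 3940, 3640 and 4160 in WOX5 against 1110, 891 and 1050 in TMO5 cells, 3.86-fold higher (limma adjusted p = 0.0017). AT5G15950 of the same list was 9.73-fold higher, at 692, 1520 and 667 in WOX5 and 83.1, 113 and 81.2 in TMO5 cells (limma adjusted p = 0.0040). AT3G25570 was within background in both groups. Both calls held under each of 13 alternatives.

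Of DOF transcription factor genes, the family of the PEAR factors, 12 were measured among 36 listed loci, and 3 were higher and 2 lower in WOX5 cells, against 14.3% and 9.49% of all probe sets. AT1G21340 had 724, 321 and 752 in WOX5 against 32.1, 15.7 and 19.4 on TMO5 arrays. It was higher by at least 21.2-fold, since the TMO5 mean lay within background. AT2G34140 had 393, 359 and 406 in WOX5 against 44.7, 24.4 and 40.0 in TMO5 cells, and AT2G28510 is given above. AT4G24060 had 83.9, 23.7 and 53.3 in WOX5 against 587, 566 and 613 in TMO5 cells, 12.4-fold lower (limma adjusted p = 0.0057), and AT1G64620 was 4.66-fold lower. Their WOX5 means were only 1.68 and 2.03 times background.

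Of the bHLH genes that passed, NAI1, bHLH34 and bHLH115 kept the call under each of 13 alternatives, and they are named here after their values were seen. NAI1 had 222, 203 and 223 in WOX5 against 40.0, 48.3 and 44.8 in TMO5 cells, 4.88-fold higher (limma adjusted p = 0.0011). The rise was 2.63-fold for bHLH34 and 2.72-fold for bHLH115 (limma adjusted p = 0.012 and 0.0052).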
